A study of Mus musculus with 2 samples.

Results

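Granule-gene-high neutrophils are the lung neutrophils with the largest share of transcripts from the granule genes Camp, Ltf and Ngp. They were chosen by their own counts: with the neutrophils of both libraries pooled, the 15% with the highest Camp, Ltf and Ngp share of UMIs (unique molecular identifiers, 1 per captured transcript) were members. This gave 1055 members of 20390 cells kept, 425 of 2987 neutrophils in the LPS_MCZ library and 630 of 4045 in the LPS library. A neutrophil was a cell with at least 200 genes and 500 UMIs, at most 20% mitochondrial UMIs, S100a8 and S100a9 making up at least 3% of its UMIs, at least 2 UMIs of the granulocyte colony-stimulating factor receptor gene Csf3r, 0 UMIs of Cd3e, Cd79a and Cdh5, and at most 2 of Ly6c2, F13a1 and Mrc1 in sum. The other 85% of neutrophils, 2562 in LPS_MCZ and 3415 in LPS, were the class they were compared with. As a class that should lack neutrophil granule transcripts, 329 LPS_MCZ and 809 LPS lymphocytes (at least 2 UMIs of Cd3e or of Cd79a) were measured beside them.

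The study profiled dissociated lung by droplet single-cell RNA-seq of transcript 3′ ends, with 1 library per group. In the LPS_MCZ group, male mice of the outbred ICR stock, 6 to 8 weeks old, received the antifungal imidazole miconazole by intraperitoneal injection and lipopolysaccharide, the bacterial endotoxin used to inflame the lung; the sample label gives a miconazole dose of 0.2 mg/kg, while the protocol gives 1 mg/kg. In the LPS group, mice of the same stock, sex and age received lipopolysaccharide alone, so all cells analysed here come from lungs exposed to it. The sources used here do not give the lipopolysaccharide dose, its timing or how many mice were pooled. The lower left lobe was digested with collagenases, dispase and trypsin, and the mice of a group were pooled into 1 suspension, so animals cannot be separated, and treatment and library cannot be told apart. Differences between the libraries are therefore described with no test, and every interval below covers counting error only.

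Neutrophils carry preformed proteins in granules that are filled one after another while the cell matures in the bone marrow. Azurophil granules, with myeloperoxidase and elastase, are filled in the promyelocyte. Specific granules, with lactoferrin, cathelicidin and neutrophilic granule protein, are filled in myelocytes and metamyelocytes, and gelatinase granules and secretory vesicles come last, as the cell leaves the marrow. Transcripts for specific granule proteins largely disappear in the circulating cell, so a blood or tissue neutrophil rich in them is usually read as a younger one. The factors C/EBP epsilon and PU.1 drive granule genes, and in mice Camp encodes the cathelicidin CRAMP, an antibacterial peptide, Ltf the iron-binding lactoferrin, and Ngp a cystatin-like granule protein.

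All 3 genes that chose the cells lie on mouse chromosome 9 within 1.20 Mb that holds 46 annotated genes, 31 of them protein-coding (GRCm38.p6). Camp spans 109847377 to 109849456, Ngp 110419808 to 110423012 and Ltf 111019292 to 111042766. Their start regions are shown because these genes chose the cells and differed between the libraries in unequal measure. Each sequence, from RefSeq on GRCm38.p6, covers 250 bases before to 50 bases after the annotated start, 5′ to 3′ on the gene's own strand. Capitals mark matches to a C/EBP motif, TTGCNNAA or TTNNGCAA on the other strand, and to a PU.1 core, GAGGAA or TTCCTC on the other strand.
Camp promoter, chr9:109849407-109849706, minus strand: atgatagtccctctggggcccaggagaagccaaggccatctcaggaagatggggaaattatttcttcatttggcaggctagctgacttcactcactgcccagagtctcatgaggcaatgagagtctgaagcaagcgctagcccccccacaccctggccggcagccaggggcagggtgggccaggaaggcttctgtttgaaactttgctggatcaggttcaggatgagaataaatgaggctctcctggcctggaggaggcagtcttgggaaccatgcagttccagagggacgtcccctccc
Ltf promoter, chr9:111019042-111019341, plus strand: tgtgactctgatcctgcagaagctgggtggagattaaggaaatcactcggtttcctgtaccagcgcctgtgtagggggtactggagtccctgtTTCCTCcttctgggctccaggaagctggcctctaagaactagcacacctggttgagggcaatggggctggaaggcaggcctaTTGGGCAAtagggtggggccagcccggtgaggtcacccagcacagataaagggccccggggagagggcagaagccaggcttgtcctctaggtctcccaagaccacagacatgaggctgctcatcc
Ngp promoter, chr9:110419558-110419857, plus strand: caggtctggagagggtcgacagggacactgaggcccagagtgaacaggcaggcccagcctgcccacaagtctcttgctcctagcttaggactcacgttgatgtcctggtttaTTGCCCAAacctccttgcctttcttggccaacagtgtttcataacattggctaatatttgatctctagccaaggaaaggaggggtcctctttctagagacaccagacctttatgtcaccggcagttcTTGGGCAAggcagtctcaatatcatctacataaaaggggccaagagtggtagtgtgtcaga
The Ltf window held 1 C/EBP match, whose first base lay 75 bases before the start, and 1 PU.1 match 157 bases before it. The Ngp window held 2 C/EBP matches, 138 and 11 bases before the start, and no PU.1 match; the Camp window held neither set of letters. No match of one motif overlapped one of the other. Over all 32851 promoter windows of this length, 3547 (10.8%) held the C/EBP letters and 9289 (28.3%) the PU.1 letters, so a match describes the window and does not mark a bound site.

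The granule share that chose the cells ran down without a gap across the cutoff. The 5 members just inside it had 0.319% to 0.321% of their UMIs from Camp, Ltf and Ngp, and the 5 cells just outside had 0.316% to 0.318%. Among LPS_MCZ members the median share was 0.750% (lowest 0.319%, highest 8.37%), and among LPS members 0.856% (lowest 0.319%, highest 9.92%). Other neutrophils had a median of 0.0223% in LPS_MCZ and 0.0189% in LPS. The pooled share was 1.09% in LPS_MCZ members against 0.0561% in other LPS_MCZ neutrophils and 0.0252% in LPS_MCZ lymphocytes, and 1.44% in LPS members against 0.0502% in other LPS neutrophils and 0.0257% in LPS lymphocytes. Over the members' cutoff lay 4 LPS_MCZ lymphocytes (1.22%, exact binomial 95% interval 0.332% to 3.08%) and 8 LPS lymphocytes (0.989%, 0.428% to 1.94%).

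**Figure D1:**
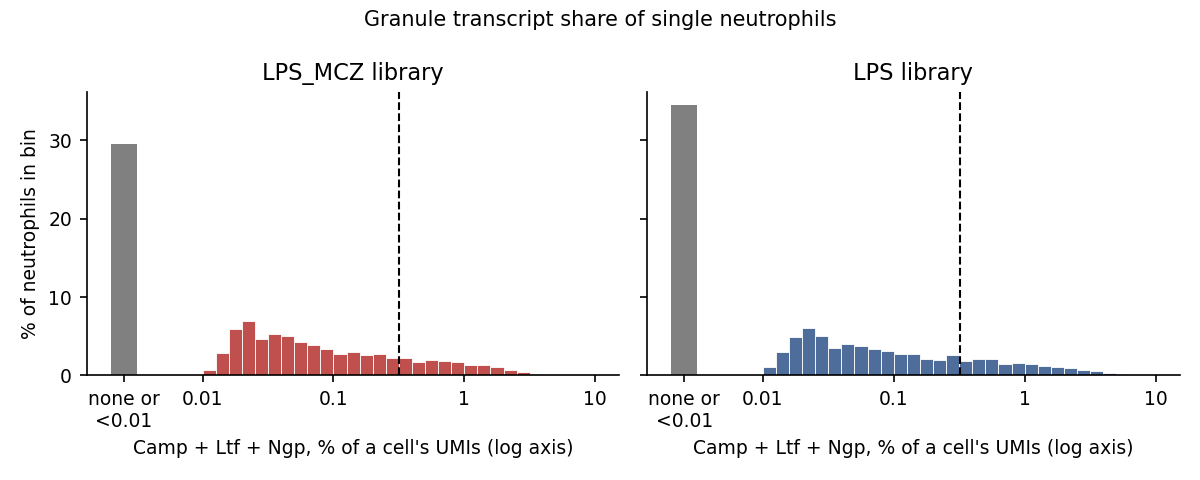
Share of each neutrophil's UMIs from Camp, Ltf and Ngp (x axis, percent, log scale, with a separate bar for cells with none or under 0.01%) against the percentage of the library's neutrophils (y axis), LPS_MCZ left of LPS, with the members' cutoff as a dashed line. The distribution falls smoothly through the cutoff in both libraries, and members reach 8.37% in LPS_MCZ and 9.92% in LPS.

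Ngp carried most of the share, counted in 3′ tags, 1 per transcript whatever its length. It gave 84.1% of the members' granule UMIs in LPS_MCZ and 74.5% in LPS, Camp 10.8% in LPS_MCZ and 18.6% in LPS, and Ltf 5.05% in LPS_MCZ and 6.95% in LPS. Every member had Ngp, while Camp was present in 83.8% of LPS_MCZ and 84.9% of LPS members and Ltf in 55.1% of LPS_MCZ and 60.0% of LPS members. All 3 genes were found in 220 LPS_MCZ members (51.8%) and 361 LPS members (57.3%), whereas Ngp was the only one of them in 12.9% of LPS_MCZ and 12.4% of LPS members. With each cell thinned to 1000 UMIs, which left out 3 LPS_MCZ members and no LPS member, Camp was detected in 46.4% of LPS_MCZ members, 3.29% of other LPS_MCZ neutrophils and 1.82% of LPS_MCZ lymphocytes, and in 54.4% of LPS members, 3.49% of other LPS neutrophils and 2.11% of LPS lymphocytes. Without thinning these were 83.8%, 14.1% and 6.69% for LPS_MCZ members, other LPS_MCZ neutrophils and LPS_MCZ lymphocytes, and 84.9%, 14.3% and 7.29% for LPS members, other LPS neutrophils and LPS lymphocytes. Camp in other neutrophils was thus little above its level in lymphocytes, which should lack it, while Ngp was further above. After thinning, Ngp was detected in 99.1% of LPS_MCZ members, 26.1% of other LPS_MCZ neutrophils and 8.51% of LPS_MCZ lymphocytes, and in 98.4% of LPS members, 23.8% of other LPS neutrophils and 7.82% of LPS lymphocytes. Without thinning these were 100%, 58.3% and 32.5% for LPS_MCZ members, other LPS_MCZ neutrophils and LPS_MCZ lymphocytes, and 100%, 52.6% and 29.8% for LPS members, other LPS neutrophils and LPS lymphocytes.

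Members were deeper than the cells around them. Their median was 8529 UMIs in LPS_MCZ and 7934.5 in LPS, against 5585.5 in other LPS_MCZ neutrophils, 5327 in other LPS neutrophils, 8080 in LPS_MCZ lymphocytes and 6589 in LPS lymphocytes. In all, 3726115 UMIs of LPS_MCZ members and 5325702 UMIs of LPS members were summed and scaled to CPM, the count per 1000000 UMIs of the class. The libraries held 68467793 UMIs in LPS_MCZ and 90597705 in LPS. They shared 243 cell barcodes, 2 of them LPS_MCZ members and 3 LPS members; leaving these out changed no direction reported here. Lymphocyte and monocyte markers were low in the members: T cell markers summed to 86.7 CPM in LPS_MCZ and 102 in LPS, B cell markers to 22.8 CPM in LPS_MCZ and 15.2 in LPS, and the monocyte list, part of which the gate limits, to 97.2 CPM in LPS_MCZ and 133 in LPS. Nearly all of the T cell sum was Cd3d, at 84.5 CPM in LPS_MCZ and 97.1 CPM in LPS members. Other neutrophils held less Cd3d, 50.7 CPM in LPS_MCZ and 43.0 CPM in LPS. Erythroid markers summed to 798 CPM in LPS_MCZ and 1235 CPM in LPS members. Cd3e, Cd79a and Cdh5 were at 0 by the gate, and Ms4a1, Epx, Prg2, Cpa3 and Pdgfra were at 0 without it. The macrophage list summed to 3048 CPM in LPS_MCZ and 2465 CPM in LPS members, nearly all of it Chil3, with Marco at 5.64 CPM in LPS_MCZ and 3.57 CPM in LPS members.

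The label calls these cells immature, and the precursor genes Mpo, Elane, Ctsg and Cebpe did not go with it. Mpo, Elane and Ctsg, whose products fill azurophil granules, had 0 UMIs in members of both libraries, where a count of 0 over the thinned cells allows, at 3 counts, a share of up to 0.711% of LPS_MCZ and 0.476% of LPS members with a UMI. Prtn3 had 10 UMIs in LPS_MCZ and 5 in LPS members, and the promyelocyte gene Ms4a3 2 in LPS_MCZ and 4 in LPS members. Cebpe, the gene of the factor that drives the specific granule stage, gave 6.71 CPM in LPS_MCZ members against 17.0 CPM in other LPS_MCZ neutrophils, and 4.69 CPM in LPS members against 6.42 CPM in other LPS neutrophils. Gfi1, which represses the monocyte programme in granulocyte precursors, had 1 UMI in each class of members. Of 28 cell cycle genes, 5 reached 50 UMIs in members. The list summed to 888 CPM in LPS_MCZ members against 732 CPM in other LPS_MCZ neutrophils. In LPS it summed to 1104 CPM in members against 851 CPM in other neutrophils, so the sum was higher in members of both libraries. Of the 5 measured genes, 2 were higher in members than in other neutrophils in LPS_MCZ and 4 in LPS. Mki67, a marker of dividing cells, gave 8.32 CPM in LPS_MCZ members against 18.0 CPM in other LPS_MCZ neutrophils, and 11.6 CPM in LPS members against 17.0 CPM in other LPS neutrophils. After thinning, Mki67 was detected in 0.474% of LPS_MCZ and 1.75% of LPS members, and in 1.45% of other LPS_MCZ and 1.79% of other LPS neutrophils. Without thinning it was found in 5.41% of LPS_MCZ and 8.25% of LPS members, and in 7.49% of other LPS_MCZ and 6.76% of other LPS neutrophils. Lymphocytes had 3.04% in LPS_MCZ and 1.86% in LPS after thinning, and 10.3% in LPS_MCZ and 7.17% in LPS without it. They are no class without division genes, since Top2a was found unthinned in 14.3% of LPS_MCZ and 9.39% of LPS lymphocytes.

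Genes of mature neutrophils were present. Cxcr2, the chemokine receptor gained on leaving the marrow, stood at 773 CPM in LPS_MCZ members against 836 CPM in other LPS_MCZ neutrophils. In LPS it stood at 715 CPM in members against 1027 CPM in other neutrophils, so it was lower in members of both libraries. Mmp9 went the other way, at 1375 CPM in LPS_MCZ members against 756 CPM in other LPS_MCZ neutrophils. In LPS, Mmp9 stood at 838 CPM in members against 511 CPM in other neutrophils. Csf3r, of which the gate required 2 UMIs, gave 665 CPM in LPS_MCZ members against 1359 CPM in other LPS_MCZ neutrophils, and 652 CPM in LPS members against 1255 CPM in other LPS neutrophils, a value the selection touches. Cxcr4, the receptor that holds precursors in marrow and returns on aged cells, gave 11.8 CPM in LPS_MCZ members against 30.8 CPM in other LPS_MCZ neutrophils, and 9.01 CPM in LPS members against 40.9 CPM in other LPS neutrophils. The members are named here by the genes that chose them, as granule-gene-high neutrophils, and no stage is assigned.

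Beyond the genes that chose them, members carried more of most other specific granule transcripts. Called means a log2 ratio of CPM (pseudocount 1 CPM) beyond 0.5 with its counting interval beyond 0, in both libraries for members over other neutrophils. Of 5945 genes with at least 50 UMIs in members, 792 (13.3%) were called higher and 638 (10.7%) lower in members. Since all genes belong to cells picked by their counts, and deeper cells were picked, these are descriptions. In the specific granule list 16 of 22 measured genes were called higher and none lower; without Camp, Ltf and Ngp it was 13 of 19, with a median log2 ratio of 0.96 in LPS_MCZ and 0.74 in LPS, where the median of all genes was 0.029 in LPS_MCZ and 0.15 in LPS.

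Cd177, a surface protein stored in specific granules, gave 411 CPM in LPS_MCZ members against 72.1 CPM in other LPS_MCZ neutrophils, and 438 CPM in LPS members against 88.1 CPM in other LPS neutrophils. Its log2 ratio was 2.50 in LPS_MCZ and 2.30 in LPS. Mmp8, the neutrophil collagenase, gave 2272 CPM in LPS_MCZ members against 507 CPM in other LPS_MCZ neutrophils, and 1867 CPM in LPS members against 722 CPM in other LPS neutrophils, a log2 ratio of 2.16 in LPS_MCZ and 1.37 in LPS. Both genes were several fold higher in members of either library. Chil3, a chitinase-like secreted protein also made by alveolar macrophages, gave 2987 CPM in LPS_MCZ members against 623 CPM in other LPS_MCZ neutrophils, and 2414 CPM in LPS members against 241 CPM in other LPS neutrophils, with 467 CPM in LPS_MCZ lymphocytes and 112 CPM in LPS lymphocytes. Its level outside the members, lymphocytes included, was thus higher in the LPS_MCZ library, and its log2 ratio was 2.26 in LPS_MCZ and 3.32 in LPS. Orm1, an acute phase glycoprotein that neutrophils also store, gave 547 CPM in LPS_MCZ members against 214 CPM in other LPS_MCZ neutrophils, and 1774 CPM in LPS members against 389 CPM in other LPS neutrophils. Further called genes were Itgb2l (1.89 in LPS_MCZ and 2.32 in LPS), Olfm4, a marker of a granule subset (1.31 in LPS_MCZ and 0.82 in LPS), and Lyz2, lysozyme (0.70 in LPS_MCZ and 0.54 in LPS). Lcn2, the siderophore-binding lipocalin stored with lactoferrin, was not called, with 19686 CPM in LPS_MCZ members against 21550.3 CPM in other LPS_MCZ neutrophils, and 24876 CPM in LPS members against 20666 CPM in other LPS neutrophils. Hp, Lrg1, Wfdc17 and Pglyrp1 were not called either.

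**Figure D2:**
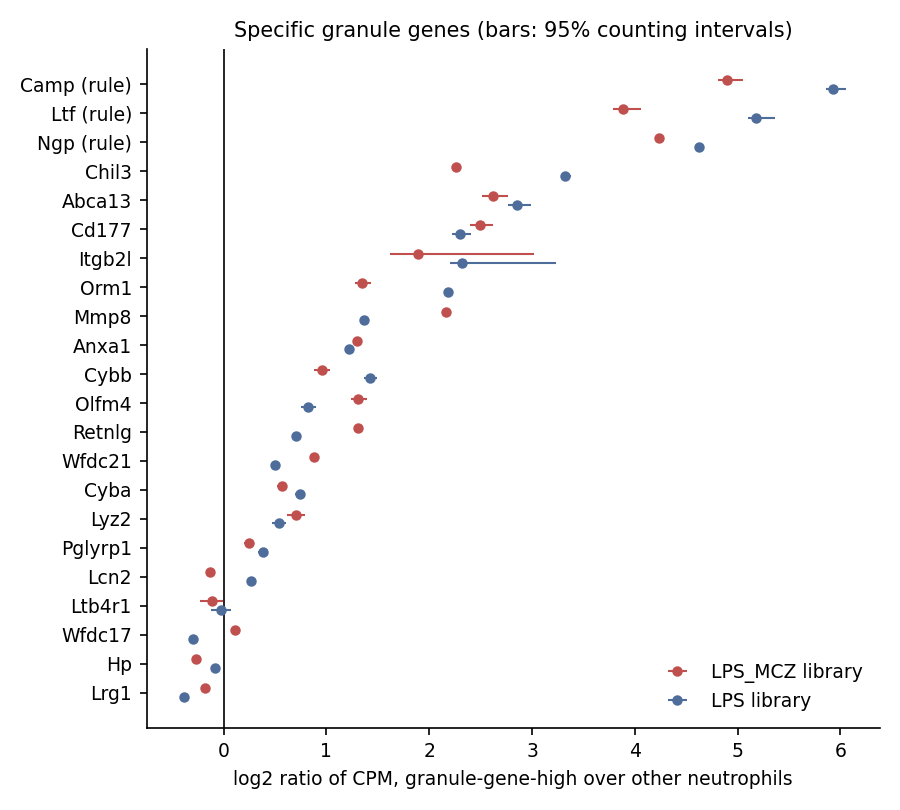
Members over other neutrophils for each gene of the specific granule list, as log2 ratios of CPM (pseudocount 1 CPM) with 95% counting intervals, LPS_MCZ and LPS drawn apart; the genes that chose the cells are marked. Camp, Ngp and Ltf lie at 3.89 or above in both libraries, 13 further genes lie beyond 0.5 in both, and Lcn2 lies near 0.

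Fewer of the measured genes in the other granule lists were called. In the azurophil list 1 of 7 measured genes was called higher and 1 lower. The higher one was the elastase inhibitor gene Serpinb1a (2.40 in LPS_MCZ and 2.35 in LPS). Mpo, Elane, Prtn3, Ctsg, Ms4a3, Cfd, Dnase2a and Gusb had too few UMIs in members to be measured. Lymphocytes held over 0.5 of the members' level, in both libraries, for 5 of the 7. These counts therefore do not describe the azurophil stage. In the gelatinase granule and secretory vesicle list 3 of 13 were called higher and none lower: the gelatinase Mmp9 (0.86 in LPS_MCZ and 0.71 in LPS), the membrane protease Mmp25 (0.57 in LPS_MCZ and 0.77 in LPS) and Adam8 (0.75 in LPS_MCZ and 0.56 in LPS). Oxidase subunits Cybb (0.96 in LPS_MCZ and 1.43 in LPS) and Cyba (0.56 in LPS_MCZ and 0.74 in LPS), which form the membrane core of the phagocyte oxidase and also stand in the specific granule list, were called higher among 9 measured oxidase and peroxidase genes, with 1 lower. Padi4, the enzyme that citrullinates histones when neutrophils cast out chromatin, gave 97.7 CPM in LPS_MCZ members against 51.7 CPM in other LPS_MCZ neutrophils, and 30.6 CPM in LPS members against 19.6 CPM in other LPS neutrophils. In the S100 and annexin list Anxa1 (1.30 in LPS_MCZ and 1.22 in LPS) and Anxa3 (1.49 in LPS_MCZ and 1.83 in LPS) were called higher among 12 measured genes, and 2 were called lower. S100a8, on which the gate selected, stood at 101012 CPM in LPS_MCZ members against 50995 CPM in other LPS_MCZ neutrophils, and at 86044 CPM in LPS members against 62587 CPM in other LPS neutrophils.

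Over all genes, the highest in members after Camp, Ngp and Ltf were Abca13, Syne1, Serpinb1a, Cd177, Chil3, Cdadc1, Cpq, Cped1, Garem1, Sept1, Krt83 and Ncam1. Lymphocytes held 139 CPM of Sept1 in LPS_MCZ and 152 CPM in LPS, against 21.2 CPM in LPS_MCZ members and 19.9 CPM in LPS members. Of Cdadc1 they held 30.7 CPM in LPS_MCZ and 25.5 CPM in LPS, against 36.8 CPM in members of each library. The part of background RNA in the members' levels of Sept1 and Cdadc1 was not tested. Abca13, a member of the lipid transporter family, gave 337 CPM in LPS_MCZ members against 54.1 CPM in other LPS_MCZ neutrophils, and 367 CPM in LPS members against 49.9 CPM in other LPS neutrophils. Syne1, which links the nuclear envelope to the cytoskeleton, gave 306 CPM in LPS_MCZ members against 35.3 CPM in other LPS_MCZ neutrophils, and 379 CPM in LPS members against 63.9 CPM in other LPS neutrophils. Serpinb1a, the inhibitor of neutrophil elastase and its relatives, gave 170.2 CPM in LPS_MCZ members against 31.3 CPM in other LPS_MCZ neutrophils, and 208 CPM in LPS members against 40.1 CPM in other LPS neutrophils. All 3 were higher in members of both libraries by a log2 ratio above 2. After thinning, Abca13 was detected in 20.4% of LPS_MCZ members, 3.17% of other LPS_MCZ neutrophils and 0% of LPS_MCZ lymphocytes, and in 27.3% of LPS members, 3.91% of other LPS neutrophils and 0.372% of LPS lymphocytes. Without thinning these were 68.7%, 14.4% and 5.47% for LPS_MCZ members, other LPS_MCZ neutrophils and LPS_MCZ lymphocytes, and 68.4%, 14.0% and 2.60% for LPS members, other LPS neutrophils and LPS lymphocytes.

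Inflammatory transcripts ran the other way. Among 16 measured chemokines and cytokines, 10 were called lower in members and none higher, with a median log2 ratio of −0.85 in LPS_MCZ and −0.64 in LPS. Cxcl1, a chemokine that draws neutrophils, gave 57.4 CPM in LPS_MCZ members against 309.9 CPM in other LPS_MCZ neutrophils, and 45.6 CPM in LPS members against 232 CPM in other LPS neutrophils. Il23a, the cytokine subunit that supports interleukin 17 responses, gave 19.9 CPM in LPS_MCZ members against 111 CPM in other LPS_MCZ neutrophils, and 10.9 CPM in LPS members against 86.9 CPM in other LPS neutrophils. Lymphocytes held 75.7 CPM of Cxcl1 in LPS_MCZ and 61.0 CPM in LPS, and 13.9 CPM of Il23a in LPS_MCZ and 7.56 CPM in LPS, so the members' levels of both are open to background RNA. Il1b gave 6098 CPM in LPS_MCZ members against 12498 CPM in other LPS_MCZ neutrophils, and 7098 CPM in LPS members against 13089.9 CPM in other LPS neutrophils, so members still held much of this transcript. Ccl4 had a log2 ratio of −1.75 in LPS_MCZ and −1.60 in LPS, and Cxcl2 −0.56 in LPS_MCZ and −0.63 in LPS.

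NF-kB targets had a median of −0.55 in LPS_MCZ and −0.59 in LPS, with 10 of 20 called lower and none higher. They included Nfkbia, the inhibitor that NF-kB induces against itself (−1.20 in LPS_MCZ and −1.20 in LPS), the adhesion molecule Icam1 (−1.31 in LPS_MCZ and −1.40 in LPS) and the prostaglandin synthase Ptgs2 (−1.74 in LPS_MCZ and −1.55 in LPS). Of 29 interferon response genes 12 were called lower and none higher, with a median of −0.53 in LPS_MCZ and −0.60 in LPS. Gbp5, a guanylate-binding GTPase, was at −2.05 in LPS_MCZ and −1.57 in LPS, and the antiviral Rsad2 at −1.46 in LPS_MCZ and −0.86 in LPS. Immediate early genes, which also respond to tissue digestion, had 9 of 18 called lower and none higher, with a median of −0.66 in LPS_MCZ and −0.52 in LPS; Zfp36, which speeds decay of cytokine transcripts, was at −1.42 in LPS_MCZ and −1.25 in LPS. Trafficking and release receptors apart from the gate gene Csf3r had 7 of 20 called lower, among them the integrin chains Itga4 (−1.94 in LPS_MCZ and −1.22 in LPS) and Itgal (−1.02 in LPS_MCZ and −0.81 in LPS). Lymphocytes held over 0.5 of the members' level, in both libraries, for 10 of the 20 NF-kB genes, 13 of the 29 interferon genes, 14 of the 18 immediate early genes, 6 of the 20 trafficking genes and 3 of the 16 chemokines and cytokines; Icam1, Gbp5, Zfp36, Itga4 and Itgal are among them.

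The remaining genes lowest in members were Prr5l, Cd244a, Jaml, Ppp1r15a, Lypd6b, Gm41409, Mir155hg, 4732465J04Rik, Cdc42bpg, Gm47922 and the globins Hbb-bt, Hbb-bs and Hba-a1. They were ranked by UMIs of all neutrophils, and Prr5l with 42 and Gm47922 with 22 UMIs in members lie under the minimum of 50. Red cell RNA differed between the classes: the erythroid list summed to 798 CPM in LPS_MCZ members, 3916 in other LPS_MCZ neutrophils and 5413 in LPS_MCZ lymphocytes, and to 1235 CPM in LPS members, 5399 in other LPS neutrophils and 4528 in LPS lymphocytes. Epithelial transcripts summed to 259 CPM in LPS_MCZ members against 1606 in other LPS_MCZ neutrophils, and to 60.1 CPM in LPS members against 103 in other LPS neutrophils, chiefly Scgb1a1. The part of such RNA in the other differences was not tested.

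Housekeeping lists differed. Cytosolic ribosomal protein genes had 1 of 30 called lower and none higher. Lymphocytes held over 0.5 of the members' level of all 30 in both libraries. The ribosomal list summed to 82923.5 CPM in LPS_MCZ and 86108.7 CPM in LPS lymphocytes, against 4606 CPM in LPS_MCZ and 5356 CPM in LPS members. Mitochondrial energy genes had more genes called, 6 of 19 higher and 1 lower, with medians of 0.15 in LPS_MCZ and 0.56 in LPS. All 19 were open to background RNA, in that lymphocytes held over 0.5 of the members' level in both libraries. The list summed to 3492 CPM in LPS_MCZ and 3370 CPM in LPS lymphocytes, against 1140 CPM in LPS_MCZ and 1173 CPM in LPS members. Lymphocytes may make these transcripts themselves, so their level does not measure background, whose part was not tested. Glycolysis had 2 of 17 called each way, with Ldha, lactate dehydrogenase, at 1.08 in LPS_MCZ and 0.94 in LPS. Of 20 granulopoiesis factors, 13 of them open to background RNA in this sense, 2 were called higher and 5 lower, the lower ones including Cebpd (−1.64 in LPS_MCZ and −1.45 in LPS) and Klf2 (−1.85 in LPS_MCZ and −1.35 in LPS). Survival and apoptosis genes had 1 of 16 called higher and 4 lower, 3 of these near-identical Bcl2a1 copies, and the stefin list 2 of 7 lower and none higher. In the chromatin and NET formation list Padi4 and Nucb2 were called higher among 9 measured, and of the 5 measured cell cycle genes Mki67 was called lower.

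These differences were graded over all neutrophils and did not begin at the cutoff. Neutrophils were cut at the pooled deciles of the granule share, the lowest of which merged into 1 bin of cells with none, giving 8 bins. From the lowest to the highest bin, Abca13 ran from 18.9 to 414 CPM within LPS_MCZ and from 19.6 to 438 CPM within LPS. Mmp8 ran from 182 to 2585 CPM within LPS_MCZ and from 401 to 2057 CPM within LPS. The summed chemokine and cytokine list went the other way over the same bins, 43050 to 20483 CPM within LPS_MCZ and 49850.5 to 23680 CPM within LPS, and the summed NF-kB list ran 28787 to 13907 CPM within LPS_MCZ and 27640 to 14139.9 CPM within LPS. Interferon response genes summed to 21019 and 13804 CPM in the end bins of LPS_MCZ and to 28899 and 17939.8 CPM in those of LPS. Median depth ran with the share too, 4818 UMIs in the lowest bin and 8959.5 in the highest within LPS_MCZ, and 4680.5 and 8219 within LPS; its part in the gradient was not tested.

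**Figure D3:**
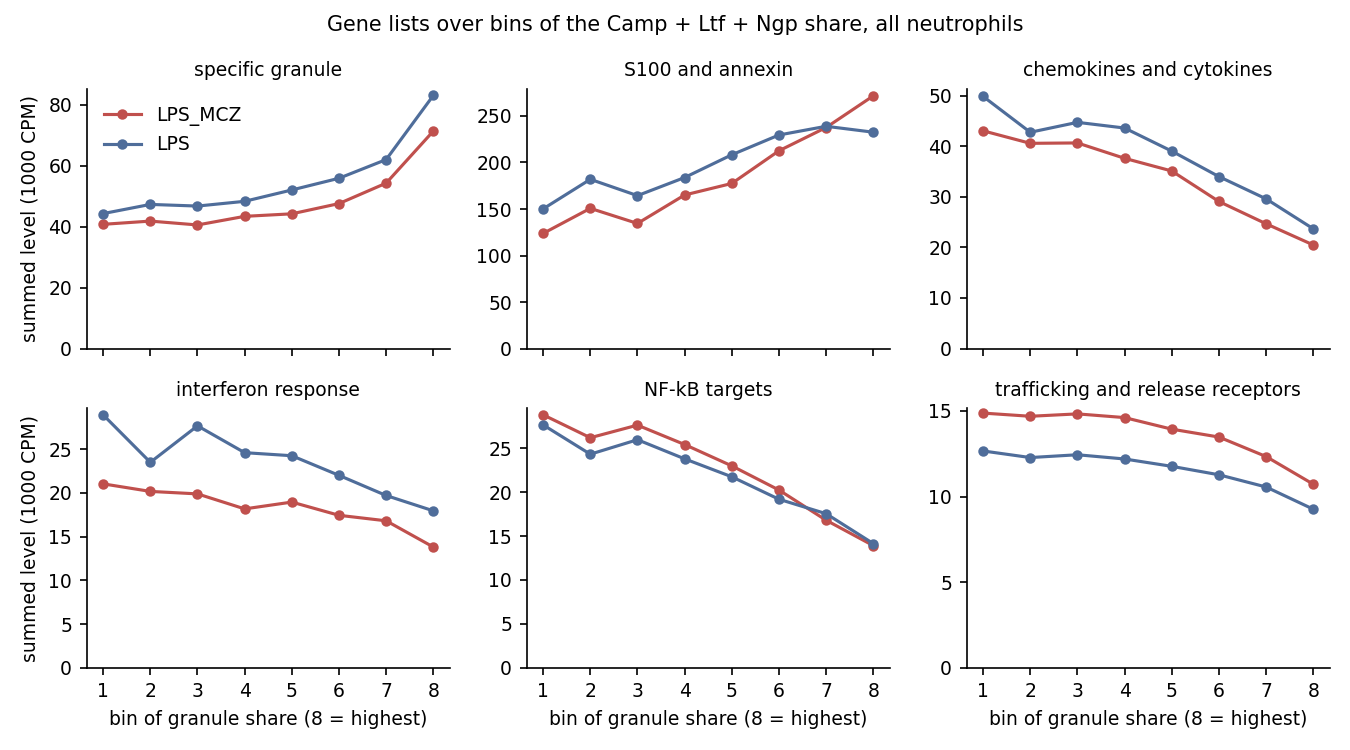
Summed level of 6 gene lists (y axes, units of 1000 CPM, from 0) over the 8 bins of all neutrophils by Camp, Ltf and Ngp share (x axis, low to high), LPS_MCZ and LPS as separate lines. The specific granule list, which holds the 3 genes that cut the bins, is highest by construction in part, and the chemokine, NF-kB, interferon and trafficking lists are lowest, in the top bin of both libraries.

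Granule-gene-high neutrophils made up 14.2% of neutrophils in LPS_MCZ (exact binomial 95% interval 12.99% to 15.5%) and 15.6% in LPS (14.5% to 16.7%). The difference of −1.35 percentage points had an interval of −3.04 to 0.363, which covers the counting of cells only and, with 1 library per group, does not decide whether the groups differ. With the cutoff at the top 10% of neutrophils it was −1.67 points (−3.08 to −0.23), and with Csf3r at 1 UMI or more −1.75 points (−3.38 to −0.10); these intervals lie below 0. Of all kept cells members were 5.11% in LPS_MCZ and 5.22% in LPS. Above the pooled cutoff, the upper quartile of the granule share lay at 1.26% in LPS_MCZ members and 1.62% in LPS members.

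Between the libraries, Camp stood at 1182 CPM in LPS_MCZ members and 2672 CPM in LPS members, a log2 ratio of −1.18 (95% counting interval −1.23 to −1.13). Ltf stood at 552 CPM in LPS_MCZ members and 1002 CPM in LPS members, a ratio of −0.86 (95% counting interval −0.94 to −0.79), and Ngp at 9191 CPM in LPS_MCZ members and 10729.7 CPM in LPS members, −0.22 (95% counting interval −0.24 to −0.20). The genes chose the cells, so these values only describe the composition of the class. Among all 5945 genes, 748 (12.6%) were called higher in LPS_MCZ members and 452 (7.6%) lower, around a median of 0.055. In the other neutrophils, 1113 (18.7%) of the same genes were called higher and 361 (6.07%) lower, around a median of 0.17.

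The specific granule list had a median of −0.11 in members, with 2 of 22 called higher and 5 lower; without the rule genes Camp, Ltf and Ngp it was 2 higher and 3 lower of 19, with a median of −0.053. Orm1 was the lowest, at 547 CPM in LPS_MCZ members and 1774 CPM in LPS members, a log2 ratio of −1.69 (95% counting interval −1.77 to −1.63); other neutrophils had 214 CPM in LPS_MCZ and 389 CPM in LPS. Wfdc17, a small secreted protease inhibitor-like protein, and the integrin-like Itgb2l were also lower, at −0.71 and −0.61. Higher in LPS_MCZ members were Pglyrp1, which binds bacterial peptidoglycan, at 1564 CPM in LPS_MCZ members and 942 CPM in LPS members (log2 ratio 0.73, 95% counting interval 0.68 to 0.79), and Lrg1 (0.61). The list thus moved both ways. Gelatinase granule and secretory vesicle genes had 4 of 13 called higher and none lower, including Mmp9 at 1375 CPM in LPS_MCZ members and 838 CPM in LPS members (log2 ratio 0.71, 95% counting interval 0.66 to 0.77) and the Mac-1 integrin chains Itgam (0.55) and Itgb2 (0.56).

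Members varied widely in granule transcripts. They were cut into 3 parts of near equal size by the granule share, at 0.574% and 1.16%, which gave 155, 145 and 125 LPS_MCZ cells and 197, 206 and 227 LPS cells from lower to upper. The upper part has no upper limit, and its median share was 1.67% in LPS_MCZ and 2.04% in LPS. Camp, Ltf and Ngp define the parts, so their values only describe what each part holds. Camp had 323, 772 and 2441 CPM in the lower, middle and upper part of LPS_MCZ members and 417, 983 and 5560.3 CPM in those of LPS members. Ltf had 76.1, 239 and 1334 CPM within LPS_MCZ and 97.4, 278 and 2195 CPM within LPS, and Ngp 3955, 7323 and 16222 CPM within LPS_MCZ and 3806, 6986 and 18489 CPM within LPS. The LPS_MCZ over LPS log2 ratio of Camp was −0.37, −0.35 and −1.19 from lower to upper, that of Ltf −0.35, −0.22 and −0.72, and that of Ngp 0.055, 0.068 and −0.19. Orm1 climbed with the share within LPS members (1036, 1279 and 2674 CPM) more than within LPS_MCZ members (459, 564 and 617 CPM). Chil3 had 1367, 2429 and 5142 CPM within LPS_MCZ and 654, 935 and 4791 CPM within LPS, so its gap between the libraries was wider in the lower and middle cells; Chil3 in lymphocytes was also higher in LPS_MCZ, and its part in this gap was not tested. The parts of 1 library come from the same pool of mice, and the difference between them was not tested.

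**Figure D4:**
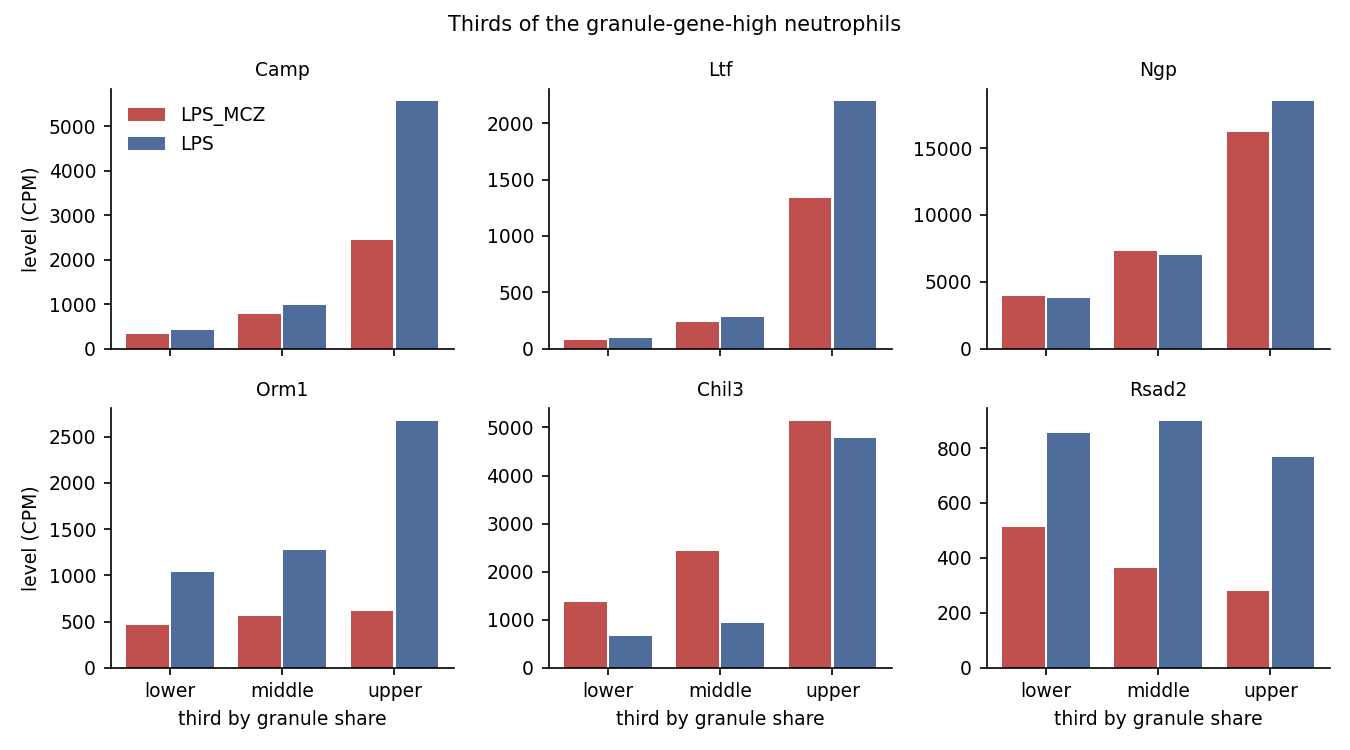
CPM (y axes, each from 0) of 6 genes in the lower, middle and upper of 3 parts of the members by granule share (x axis), LPS_MCZ left of LPS. In the upper part Camp stands at 2441 CPM in LPS_MCZ and 5560.3 CPM in LPS, and Rsad2 is lower in LPS_MCZ in all 3.

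Interferon response genes were lower in LPS_MCZ members. Of 29 measured, 16 were called lower and none higher, with a median log2 ratio of −0.58; in other neutrophils 13 were called lower and 2 higher, with a median of −0.47. Per cell, the list took a median of 1.40% of UMIs in LPS_MCZ members and 1.82% in LPS members, and the ranges between quartiles, 1.01% to 1.89% in LPS_MCZ and 1.24% to 2.41% in LPS, overlapped. Rsad2, viperin, which blocks viral replication, had 384 CPM in LPS_MCZ members and 834 CPM in LPS members, a log2 ratio of −1.12 (95% counting interval −1.20 to −1.03). Ifit1, a sensor of foreign RNA caps, had 226 CPM in LPS_MCZ members and 502 CPM in LPS members (log2 ratio −1.15, 95% counting interval −1.26 to −1.04). Isg15, a ubiquitin-like modifier, had 1662 CPM in LPS_MCZ members and 2694 CPM in LPS members (log2 ratio −0.70, 95% counting interval −0.74 to −0.65). Each was lower in LPS_MCZ by more than its counting error.

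Usp18, which removes Isg15 from proteins (−1.63), the nuclear DNA sensor relative Ifi209 (−1.50), Oasl1 (−1.26) and Cmpk2 (−1.21) were the lowest of the list, the first pair at levels open to background RNA. Not every interferon gene was lower: Slfn4 had a ratio of 0.0013 and the GTPase gene Gbp2 0.27. Over the parts of the members from lower to upper, the list's median was −0.20, −0.54 and −0.78, and 23, 26 and 25 of the 29 genes were below 0. Rsad2 had 514, 362 and 279.5 CPM over these parts within LPS_MCZ and 856, 899.7 and 768 CPM within LPS.

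Stefin genes encode cytosolic cysteine protease inhibitors, and the stefin A genes form a mouse cluster on chromosome 16. All 6 measured genes of that cluster were called lower in LPS_MCZ members; the list's seventh measured gene, Cstb, encodes stefin B, lies outside the cluster and was not called (−0.49). The list of 7 had none called higher, with a median of −1.15 in members and −0.69 in other neutrophils. Stfa2 had 292 CPM in LPS_MCZ members and 816 CPM in LPS members (log2 ratio −1.48, 95% counting interval −1.58 to −1.38) and Stfa2l1 749.6 CPM in LPS_MCZ members and 1669.8 CPM in LPS members (log2 ratio −1.15, 95% counting interval −1.22 to −1.09). The stefin A copies are near identical, so the split of UMIs between them is uncertain. Per cell the list took a median of 0.111% of UMIs in LPS_MCZ members and 0.315% in LPS members. The ranges between quartiles, 0.0342% to 0.383% in LPS_MCZ and 0.0845% to 0.966% in LPS, overlapped. Without thinning, Stfa2 was found in 23.5% of LPS_MCZ and 39.0% of LPS members, so its summed level came from a minority of cells.

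Among 16 chemokines and cytokines, 7 were called lower in LPS_MCZ members and none higher, with a median of −0.36; in other neutrophils 4 were lower and 2 higher. Cxcl10, an interferon-induced chemokine for T cells, had 237 CPM in LPS_MCZ members and 686 CPM in LPS members (log2 ratio −1.53, 95% counting interval −1.64 to −1.43). Ccl4, a chemokine for macrophages and T cells, had 629 CPM in LPS_MCZ members and 1274 CPM in LPS members (log2 ratio −1.02, 95% counting interval −1.09 to −0.95). Both were lower in LPS_MCZ, as were Ccl6 (−0.71), Ccl3 (−0.57), Cxcl3 (−0.50), Ccl9 (−0.53) and the receptor antagonist gene Il1rn (−0.67). Il1b (−0.22), Cxcl2 (−0.059) and Tnf (0.48) were not called. NF-kB targets had a median of 0.036, with 2 of 20 called each way; the superoxide dismutase Sod2 was lower (−0.95) and the signalling adaptor Traf1 higher (0.53). Immediate early genes had 4 of 18 lower and none higher, including Fos (−0.73) and Egr1 (−0.74).

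**Figure D5:**
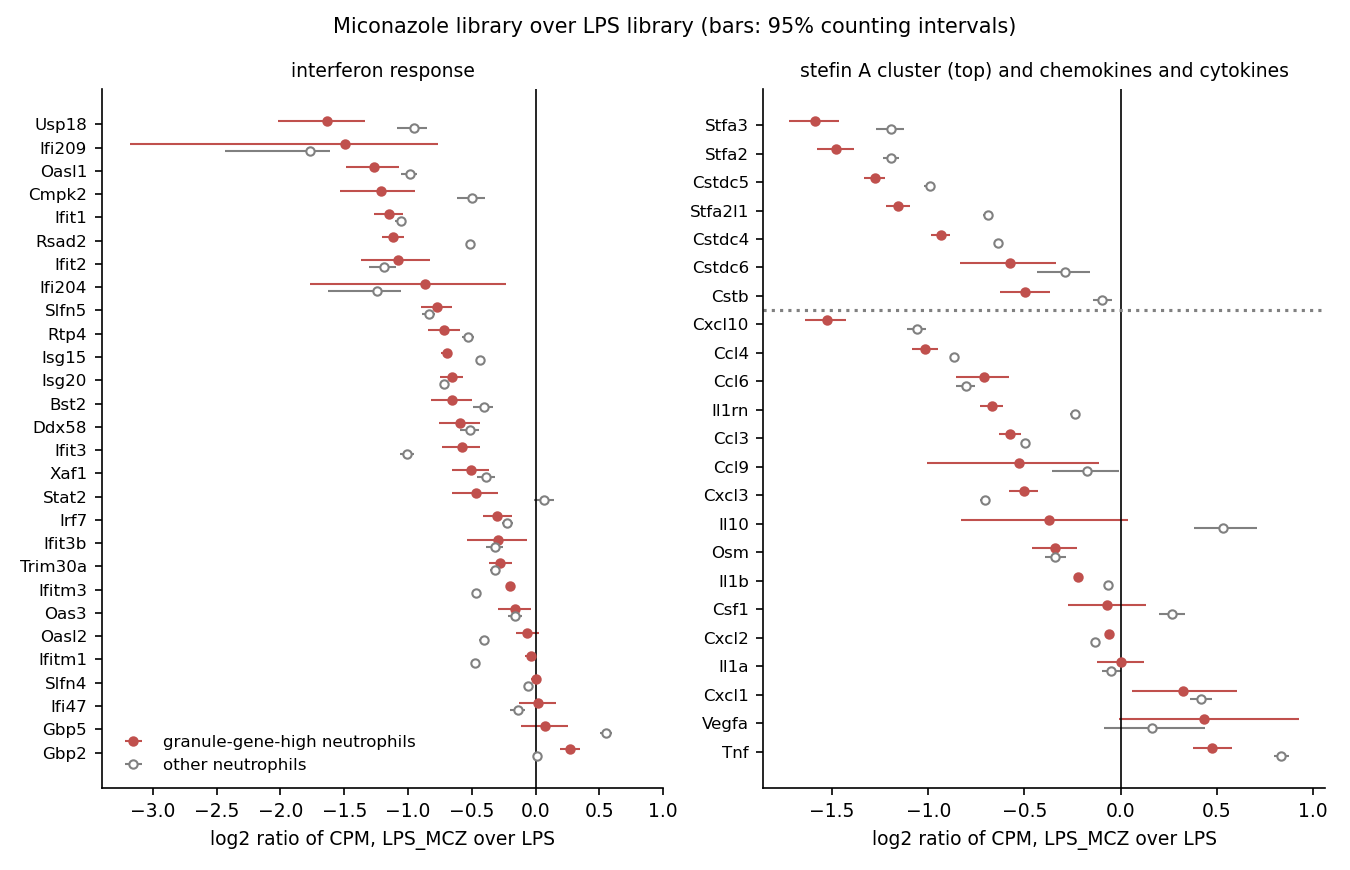
LPS_MCZ over LPS as log2 ratios of CPM (pseudocount 1 CPM; x axis) for genes of the interferon, stefin A and chemokine lists, members and other neutrophils drawn apart, with 95% counting intervals. Most interferon genes and all stefin genes but Cstb lie below −0.5 in members, and other neutrophils lie on the same side for most of them.

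Trafficking and release receptors went the other way, with 8 of 21 called higher in LPS_MCZ members and 1 lower. Ceacam1, an adhesion molecule (0.90), Ly6g, the neutrophil surface antigen (289 CPM in LPS_MCZ members and 168 CPM in LPS members; 0.78), Cd24a (0.72), Itgal (0.80) and Icam1 (0.59) were higher, and the junction molecule Pecam1 was lower (−1.60); lymphocytes held over 0.5 of the members' level of the last 3. Glycolysis had 5 of 17 called higher and none lower, including the hexokinases Hk1 (0.62) and Hk3 (0.79). In the S100 and annexin list 4 of 12 were higher and none lower: S100a6 (0.86), S100a10 (0.81, but −0.29 without the gate's limit on Ly6c2, F13a1 and Mrc1), Anxa2 (0.55) and Anxa11 (0.60). Gpx1, the peroxide-removing selenoenzyme, was higher at 1.01, the only one of 9 oxidase and peroxidase genes called. Called counts were small for survival genes (1 higher and 2 lower of 16), mitochondrial energy (1 higher and 2 lower of 19) and granulopoiesis factors (0 higher and 2 lower of 20). Their shares called lower were near that of all genes, and these counts are no result about the lists. Ribosomal proteins had 0 higher and 3 lower of 30. Of the 30 ribosomal genes, 29 lay below 0 (median −0.19), and all were open to background RNA. Over the parts of the members from lower to upper, 18, 9 and 30 of them lay below 0. The chromatin list had 2 of 9 called each way, and the azurophil list 2 of 7 higher and 1 lower. Mpo, Elane, Prtn3 and Ctsg are not among these 7, of which 5 were open to background RNA. Of the 5 measured cell cycle genes, 3 were lower and none higher in LPS_MCZ members: the histone variant H2afz (−0.87) and the tubulins Tuba1b (−0.87) and Tubb5 (−0.85), all of which cells also use outside division and all at levels open to background RNA.

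Over all genes with at least 200 UMIs in members, the highest in LPS_MCZ members included Pi16, Fam129b, Slc28a2, Padi4, Gm27211, Tgfbi, Mfsd7a, Ints6l, Msmo1, Chil5 and E230014E18Rik. Msmo1, a sterol demethylation enzyme of cholesterol synthesis, had 60.9 CPM in LPS_MCZ members and 23.3 CPM in LPS members (log2 ratio 1.35, 95% counting interval 1.07 to 1.72). It was higher in other neutrophils of LPS_MCZ too (1.66). Lymphocytes held 26.5 CPM of Msmo1 in LPS_MCZ and 26.3 CPM in LPS, the latter above the level of LPS members. They also held more Ints6l than members in LPS (23.9 against 14.5 CPM). The part of background RNA in the LPS members' levels of Msmo1 and Ints6l was not tested. Padi4 had 97.7 CPM in LPS_MCZ members and 30.6 CPM in LPS members (log2 ratio 1.64, 95% counting interval 1.40 to 1.95), and 1.35 in other neutrophils. Pi16, a peptidase inhibitor gene, had 76.0 CPM in LPS_MCZ members and 20.5 CPM in LPS members (log2 ratio 1.84, 95% counting interval 1.57 to 2.22).

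The lowest were BC018473, Tpm3-rs7, Bcl2a1a, Ffar2, Orm1, Cpq, Saa3, Fcgr1, Stfa3, Cxcl10, Stfa2 and Fbp1. BC018473, a long noncoding RNA gene on chromosome 11 from 116752167 to 116757883 (GRCm38.p6), had 23 UMIs in LPS_MCZ members and 5970 in LPS members, and 69 UMIs in other LPS_MCZ neutrophils against 35252 in other LPS neutrophils. It was near absent from neutrophils of LPS_MCZ whatever their granule share. Lymphocytes had 1 UMI in LPS_MCZ and 1463 UMIs in LPS. In LPS this was 217 CPM, against 1121 CPM in members and 1782 CPM in other neutrophils. Whether lymphocytes make this RNA or hold it as background was not tested. Ffar2, a receptor for short-chain fatty acids that guides neutrophils, had 14.2 CPM in LPS_MCZ members and 49.6 CPM in LPS members (log2 ratio −1.73, 95% counting interval −2.26 to −1.37). Fcgr1, the high-affinity immunoglobulin receptor, had 30.3 CPM in LPS_MCZ members and 93.1 CPM in LPS members (log2 ratio −1.59, 95% counting interval −1.93 to −1.32), and the acute phase gene Saa3 332 CPM in LPS_MCZ members and 1023 CPM in LPS members (log2 ratio −1.62, 95% counting interval −1.71 to −1.53). Bcl2a1a, a survival gene with near-identical copies, had a ratio of −2.02 and is uncertain for that reason. In LPS_MCZ, lymphocytes held more than members of Saa3 (920 CPM), Fcgr1 (35.3 CPM), Bcl2a1a (46.7 against 42.4 CPM) and Cpq (41.3 against 36.0 CPM). In LPS, lymphocytes held less than members of each. The part of background RNA in the LPS_MCZ levels of these genes was not tested.

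The ratios of members and of other neutrophils come from the same pair of libraries, so they are only set side by side. Mmp8 lay on opposite sides: 2272 CPM in LPS_MCZ members and 1867 CPM in LPS members (0.28), while other neutrophils had 507 CPM in LPS_MCZ and 722 CPM in LPS (−0.51).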

How the data were processed

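The deposited matrices hold raw UMI counts per gene and cell, made by the authors with Cell Ranger 7.0.0 on mm10 (GRCm38) per the file headers, after bcl2fastq 2.20 per the submitters' processing notes; whether intronic reads were counted is not given in the sources used here. Here counts were summed over the cells of a class in each library and scaled to CPM. Ratios are log2 with a pseudocount of 1 CPM, with exact conditional binomial 95% intervals of the ratio without pseudocount; shares have exact Clopper-Pearson intervals, and a share of 0 a limit of 3 counts. Genes were counted as called or not from 50 UMIs in members. A value was open to background RNA where the lymphocyte CPM exceeded 0.5 of the members' CPM in both libraries. A gene that lymphocytes make themselves also meets this limit, so it is a caution and does not measure background. Values of a few genes are not reported here. No doublet caller was run; the gate left out cells with Cd3e, Cd79a or Cdh5.

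With 1 library per group no test across samples and no p-value was possible. Genes named over all genes were the 15 highest and 15 lowest by the weaker of both libraries (members over other neutrophils) and the 12 highest and 12 lowest LPS_MCZ over LPS ratios not open to background RNA, from 200 UMIs in all neutrophils for the first kind and in members for the second; in lists, the called genes by size and the most abundant were named. Members and the 18 gene lists were chosen with earlier results of these data known. The calling step was tested on simulated data. Alternatives covered the member cutoff, the gate, depth, scaling, pseudocount, low counts and background RNA. Python 3.11.15, numpy 2.4.6, scipy 1.17.1, pandas 2.3.3 and matplotlib 3.10.9 were used.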

Additional observations from a re-analysis of the deposited data

Results flagged for a closer look

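Cells as rich in Camp, Ltf and Ngp as the members also lay outside the neutrophil gate. Failing only the limit on Ly6c2, F13a1 and Mrc1 were 488 LPS_MCZ cells and 642 LPS cells. Their Ly6c2, a gene of inflammatory monocytes, stood at 1038 CPM in LPS_MCZ and 873 CPM in LPS, against 65.5 CPM in LPS_MCZ members and 89.6 CPM in LPS members. The receptor gene Csf1r, on the monocyte list, stood at 25.7 CPM in LPS_MCZ and 23.4 CPM in LPS, against 12.6 CPM in LPS_MCZ members and 17.7 CPM in LPS members. Other neutrophils inside the gate held more Csf1r than these cells, 39.8 CPM in LPS_MCZ and 46.8 CPM in LPS. Ccr2 in the cells outside the gate stood at 4.29 CPM in LPS_MCZ and 11.8 CPM in LPS, against 2.95 CPM in LPS_MCZ members and 1.88 CPM in LPS members. Fn1, fibronectin, another gene of the monocyte list, stood at 9.17 CPM in LPS_MCZ and 49.2 CPM in LPS, against 4.03 CPM in LPS_MCZ members and 3.57 CPM in LPS members. Their granule genes were near member levels, with Camp at 1557 CPM in LPS_MCZ and 2653 CPM in LPS and Mmp8 at 2573 CPM in LPS_MCZ and 2259.8 CPM in LPS. Their Ly6g stood at 344 CPM in LPS_MCZ and 255 CPM in LPS, against 289 CPM in LPS_MCZ members and 168 CPM in LPS members. Their Cxcr2 stood at 786 CPM in LPS_MCZ and 794 CPM in LPS, against 773 CPM in LPS_MCZ members and 715 CPM in LPS members. Failing only the Csf3r minimum were 104 LPS_MCZ cells and 225 LPS cells, with Camp at 2566 CPM in LPS_MCZ and 4738 CPM in LPS, Ngp at 15571 CPM in LPS_MCZ and 16739 CPM in LPS, and Elane at 0 UMIs in LPS_MCZ and 5 UMIs in LPS. These cells enter only the alternatives that drop the limit or lower the Csf3r minimum.

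The LPS_MCZ over LPS log2 ratio lay on opposite sides of 0 in members and in other neutrophils, with both counting intervals clear of 0, for 185 of 5945 genes. Among 311 list and named genes, 7 did so with a difference above 0.5. Ltf had −0.86 in members and 0.43 in other neutrophils. Mmp8 had 0.28 in members and −0.51 in other neutrophils. S100a8 had 0.23 in members and −0.30 in other neutrophils. Npm1 had −0.42 in members and 0.67 in other neutrophils. Cycs had −0.28 in members and 0.40 in other neutrophils. Atp5g1 had −0.67 in members and 0.78 in other neutrophils, and Uqcrc1 had −0.69 in members and 0.45 in other neutrophils. Ltf chose the members and S100a8 the neutrophils, so their values describe the selection. Mmp8 is a granule gene, Npm1 is a nucleolar chaperone, and the others encode parts of the respiratory chain or ATP synthase, at levels open to background RNA. The difference between the classes was not tested.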

How the results depend on the processing

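Of the alternative values for the counts of called genes and the member share, 60 stayed close to the value reported and 10 moved. With a pseudocount of 10 CPM, 425 genes were called higher and 239 lower in LPS_MCZ members, and 369 higher in members than in other neutrophils; with at least 200 UMIs, which leaves fewer genes, these were 369, 240 and 421, and 375 were lower in members than in other neutrophils. With free RNA subtracted, 1150 genes were higher in LPS_MCZ members and 3040 higher in members than in other neutrophils. With the rule genes, S100a8 and S100a9 left out of the totals, which lifts every other level in members, 1204 were higher in members. The cause of the other shifts was not tested. The member share in LPS_MCZ minus that in LPS ran over −1.75 to −0.76 points in the settings that could change it; a cutoff set within each library fixes it.

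Of the gene list medians under an alternative, 707 stayed close and 121 moved; none whose size was above 0.5 changed sign. The LPS_MCZ over LPS median ranged over −0.70 to −0.47 for interferon genes, −1.22 to −0.97 for the stefin list, −0.48 to −0.21 for chemokines and −0.17 to −0.044 for specific granule genes. Among values of single genes 4381 stayed close, 512 moved and 12 reversed a called LPS_MCZ over LPS ratio: Atf3 to 0.75 with free RNA subtracted; Atp5g1 to 0.13 and Rps18 to 0.27 with the top 20% as members; Hba-a1 to 0.80, Hbb-bs to 0.83 and Hbb-bt to 1.06 with Csf3r at 1 UMI; and, without the limit on Ly6c2, F13a1 and Mrc1, Atf3 to 0.39, Hba-a1 to 0.12, Hbb-bs to 0.34, Hbb-bt to 0.072, Il23a to −0.047 and S100a10 to −0.29. That last alternative, leaving out shared barcodes and weighting the 3 parts of the members equally were chosen after seeing the data; with the parts weighted equally Camp was −0.98 and Ltf −0.64. No paired analysis was possible because each group had 1 library. Pooled mice, 1 library per group and counting error alone behind each interval limit all values.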
